A study of Mus musculus with 208 samples.

Results

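Mbp, Mobp, Mal, Mog, Mag, Cnp, Sox10 and St18, 8 of the 46403 genes counted in each brain region, were followed across libraries of nuclear RNA from neuronal nuclei sorted with an antibody against NeuN. They were chosen by gene symbol because oligodendrocytes use them. The rule holds no measured value, but earlier results of these data were known when it was written. All 8 had counts in hypothalamus, striatum, hippocampus and prefrontal cortex (PFC), and all 8 passed the filter on low counts (a total count above 10 over a region's libraries) in each region.

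Oligodendrocytes wrap axons in myelin, a stack of membrane held together from the inside by basic proteins and lined at its edges by adhesion proteins. Mbp (myelin basic protein), Mobp and Mal belong to the compact sheath, Mog and Mag sit on its outer and axon-facing surfaces, and Cnp encodes an enzyme that keeps cytoplasmic channels open within it. Sox10 is a transcription factor needed for the oligodendrocyte lineage, and St18 encodes a zinc finger factor that is also expressed by groups of neurons. The Mbp locus has a further promoter upstream whose golli transcripts are made in neurons as well, and a count per gene cannot separate these from the transcripts of the myelin protein. NeuN, the product of Rbfox3, is absent from mature oligodendrocytes, so a sort for it is meant to leave their nuclei behind.

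The nuclei came from adult wild type C57BL/6NTac mice of both sexes, with 1 library per animal and region. Dams carried minipumps with morphine (MOR) or saline (SAL) through gestation and drug-naive surrogates raised all pups. MOR pups were given further morphine, at 10 mg/kg in each of the 2 daily injections, from postnatal day 1 to 14, and SAL pups were given saline. As adults they were injected with lipopolysaccharide (LPS, a bacterial trigger of inflammation) or saline, and tissue was taken 2 h later. The SAL-SAL controls had 11 libraries from the hypothalamus, 13 from the hippocampus, 10 from the PFC and 13 from the striatum. In the same order of regions there were 14, 12, 12 and 8 libraries of MOR-SAL, 12, 14, 10 and 15 of SAL-LPS, and 14, 16, 16 and 18 of MOR-LPS. Libraries that share a replicate label, such as 15-3, had the same condition and sex in every region and were taken as 1 mouse, which gives 71 mice, of which 18 had a library from all 4 regions. The labels do not say what the first number of a replicate label stands for. Mice that share it are called a number group here (15-3 belongs to number group 15). There were 18 number groups, fewer than the litters that the study's methods name, and 0 of them held both exposures, 17 both challenges and 1 both sexes. Exposure was assigned by dam, so an effect of morphine and a difference between litters cannot be told apart, and no label gives the litter of a mouse.

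Total counts spanned 7673 to 35077048 for hypothalamic libraries, 227025 to 24071488 for hippocampal, 3056648 to 21988203 for PFC and 5954700 to 92945090 for striatal ones. In 3 libraries of the hypothalamus, 2 of the hippocampus, 3 of the PFC and 0 of the striatum the total was under 0.5 of the region's median, and the hypothalamic library of animal 1-4, with 7673 counts, held 2 counts of the 8 genes. In 3, 4, 2 and 0 libraries in the same order the Y-linked genes went against the labelled sex. The level of Rbfox3 was at least 68.1 CPM (counts scaled to a fixed library total) in hypothalamic libraries, 227 in striatal, 611 in hippocampal and 765 in PFC ones, so every library carried the transcript of the sorted antigen. Gfap (astrocytes), P2ry12 (microglia), C1ql1 and Gpr17 (oligodendrocyte precursors) and Tubb3 and Nefl (neurons) have counts in the hypothalamic table and are listed at 0 in the other 3 tables, so the fits across regions leave the hypothalamus out unless stated.

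In the mm10 genome Mobp lies on the plus strand of chromosome 9 from 120149707 to 120181484, Mal on the minus strand of chromosome 2 from 127633226 to 127656695 and Mog on the minus strand of chromosome 17 from 37010743 to 37023398. Mag lies on the minus strand of chromosome 7 from 30899176 to 30914873, Cnp on the plus strand of chromosome 11 from 100574904 to 100591729, Sox10 on the minus strand of chromosome 15 from 79154908 to 79165240 and St18 on the plus strand of chromosome 1 from 6487231 to 6860940. The exons of Cnp share 4.23% of their bases with Dnajc7 on the opposite strand and those of Mobp 1.15% with Gm38642, and the strand setting of the counting is not given in the sources used here. Counts of Cnp and Mobp are uncertain to that extent, and the exons of the other 6 genes overlap none of another gene.

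Promoter windows of 300 bases (250 before and 50 after the start of the transcript, RefSeq, GRCm38.p6) were found for 5 of the 8 genes, Mobp, Mal, Mog, Mag and Cnp. They were searched on both strands for ACAAAG and ACAATG, letters that proteins of the SOX family, Sox10 among them, are known to bind. Mag has 3 windows in the table, and the one at the start of its gene model was used. The windows of Mobp, Mag and Mog are shown as examples with 6, 1 and 0 matches, with capitals marking each match (CTTTGT is ACAAAG read from the other strand).
Mobp, chr9:120149492-120149791, plus strand: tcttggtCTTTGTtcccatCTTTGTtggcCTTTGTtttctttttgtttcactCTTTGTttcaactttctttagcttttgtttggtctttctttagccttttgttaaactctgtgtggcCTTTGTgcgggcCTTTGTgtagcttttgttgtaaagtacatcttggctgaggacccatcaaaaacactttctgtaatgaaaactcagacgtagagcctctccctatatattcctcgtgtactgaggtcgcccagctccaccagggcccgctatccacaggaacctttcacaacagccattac
Mag, chr7:30914814-30915113, minus strand: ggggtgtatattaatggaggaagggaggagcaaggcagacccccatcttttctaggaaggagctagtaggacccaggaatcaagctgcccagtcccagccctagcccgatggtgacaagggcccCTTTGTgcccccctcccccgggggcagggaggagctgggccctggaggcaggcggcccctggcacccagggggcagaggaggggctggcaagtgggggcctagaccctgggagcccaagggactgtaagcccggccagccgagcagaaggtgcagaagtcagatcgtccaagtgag
Mog, chr17:37023349-37023648, minus strand: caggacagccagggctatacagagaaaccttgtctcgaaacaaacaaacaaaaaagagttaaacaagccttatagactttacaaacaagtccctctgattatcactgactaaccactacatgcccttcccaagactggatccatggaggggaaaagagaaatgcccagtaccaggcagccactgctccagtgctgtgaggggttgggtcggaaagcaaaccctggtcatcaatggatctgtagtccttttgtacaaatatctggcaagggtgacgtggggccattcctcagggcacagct

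The Mobp window held 6 matches, all as CTTTGT, between 243 and 120 bases before the start. Mag and Cnp held 1 each, 126 and 167 bases before the start, and Mal and Mog held 0. Of 32851 windows of the same length, 18.7% held ACAAAG, 12.6% ACAATG and 28.6% either of them. A match describes the letters of a window and is no measure of binding.

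Per kilobase of exon, Mbp had the highest median level of the 8 genes in the hippocampus (21.4 CPM per kb), PFC (17.9) and striatum (19.6). In the hypothalamus Cnp (13.6) and Mbp (12.0) led, with overlapping quartile ranges. Sox10 was the lowest in every region, with medians of 0.891, 0.750, 1.92 and 1.24 CPM per kb (hypothalamus, hippocampus, PFC, striatum). Between these ends lay Mobp (5.23, 5.95, 6.83 and 9.28 CPM per kb in the same order), Mog (4.53, 4.96, 3.80 and 4.86), Mag (4.67, 2.34, 4.17 and 3.46) and Mal (3.95, 3.44, 3.68 and 5.48), whose ranges from the lower to the upper quartile overlapped within every region but the hippocampus, where the upper quartile of Mag (3.65) lay under the lower quartile of Mobp (3.94). In the hypothalamus, which has the shallowest library, each of the 8 had a count in 43 (Sox10) to 51 (Mobp and Cnp) of 51 libraries.

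**Figure D1:**
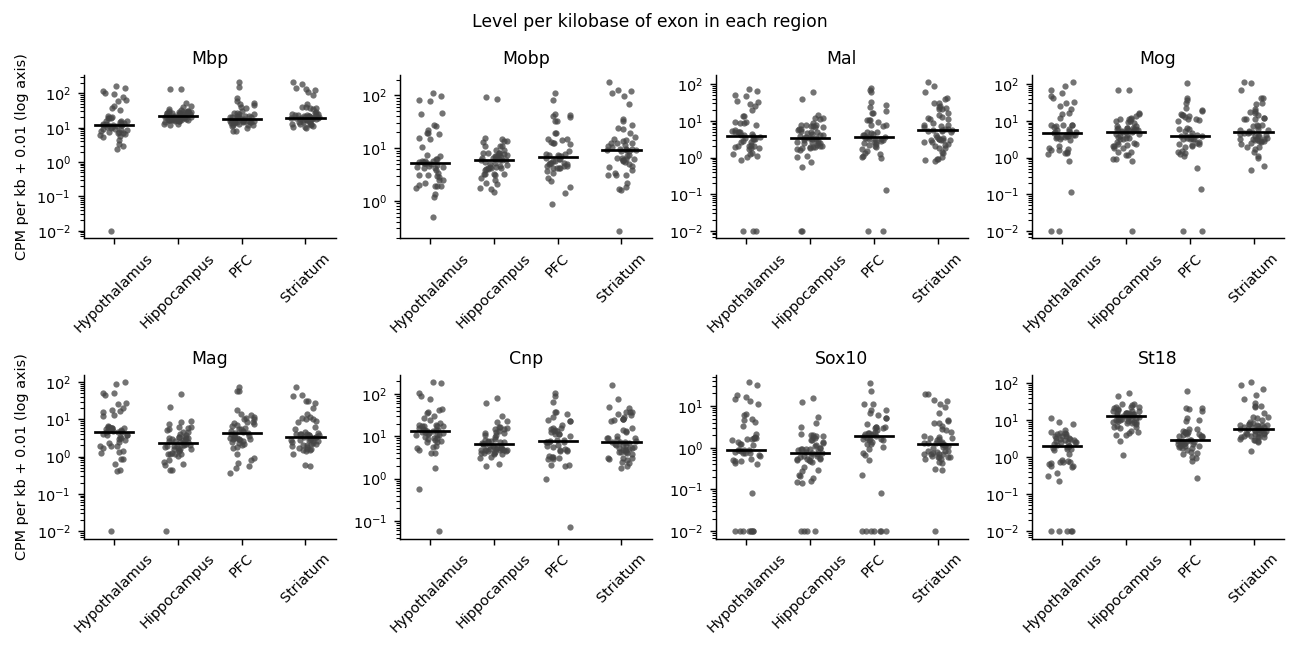
Level of each of the 8 genes per kilobase of exon (CPM per kb plus 0.01, log axis) in every library of the 4 regions, with a point for each library and a bar at the median. St18 has a median of 12.9 CPM per kb in the hippocampus against 2.01 in the hypothalamus, while the medians of Mog lie between 3.80 and 4.96.

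St18 stood apart by region. Its median was 2.01 CPM per kb in the hypothalamus, 2.82 in the PFC, 5.77 in the striatum and 12.9 in the hippocampus, where it followed Mbp in the order of the 8 genes. In a fit of the hippocampus, PFC and striatum together, with each pair of regions averaged over the 4 conditions, St18 was higher in the hippocampus than in the PFC (log2 difference 1.51 ± 0.23, SE, adjusted p = 2.03e-08, edgeR) and lower in the PFC than in the striatum (-1.14 ± 0.23, adjusted p = 1.54e-05). Hippocampus and striatum differed by 0.37 ± 0.22 (adjusted p = 0.195). With the hypothalamus added to the fit, St18 was lower there than in the hippocampus (-2.84 ± 0.26, adjusted p = 1.15e-21), the PFC (-1.36 ± 0.25, 5.96e-07) and the striatum (-2.44 ± 0.25, 2.44e-17). Of the other 7 genes, Mag (1.32 ± 0.28, adjusted p = 8.6e-06), Cnp (1.03 ± 0.26, 0.000178) and Sox10 (0.94 ± 0.35, 0.0159) were higher in the hypothalamus than in the hippocampus. Mbp was lower there than in the PFC (-0.49 ± 0.21, 0.0296), and Mbp (-0.61 ± 0.20, 0.00538) and Mobp (-0.71 ± 0.26, 0.0137) were lower than in the striatum. That makes 4, 2 and 3 of the 8 genes called, beside 61.4%, 63% and 63.4% of all 22230 genes tested.

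Between hippocampus and PFC, 4 of the other 7 genes were called in the opposite direction to St18. Mag (-1.06 ± 0.26, adjusted p = 0.000497), Sox10 (-1.26 ± 0.34, 0.00128), Mobp (-0.70 ± 0.25, 0.0208) and Cnp (-0.60 ± 0.25, 0.0454) were lower in the hippocampus, so that 5 of the 8 genes were called, beside 36.8% of all genes tested (18.4% in each direction). Against the striatum, the hippocampus was lower in Mobp (-1.0 ± 0.25, adjusted p = 0.000588), Mag (-1.03 ± 0.26, 0.000594), Mal (-1.07 ± 0.30, 0.00209), Sox10 (-0.89 ± 0.33, 0.0245) and Cnp (-0.60 ± 0.24, 0.0375), again 5 of 8 beside 38.1% (23.3% lower). Between PFC and striatum St18 alone was called of the 8, beside 41.9% of all genes (25.4% lower). Mbp and Mog passed in none of the 3 pairs in edgeR. The same animals gave several regions. In limma-voom with the animal as a block, 6 of the 8 were called in each of the pairs with the hippocampus (1 higher and 5 lower against the PFC, 6 lower against the striatum, Mog among them at -0.75 ± 0.29, adjusted p = 0.0384). Without that block 1 was higher and 1 lower against the PFC, and 1 higher and 0 lower against the striatum, so that none of the 5 lower calls against the striatum was made. Over all genes, 7774 (PFC) and 8298 (striatum) were called with the block and 9296 and 9565 without it.

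Within every region a few libraries held much of the signal. Summed over the 7 genes other than St18, the 5 highest libraries carried 49.4% of the CPM of 51 hypothalamic libraries, 32.0% of 55 hippocampal, 42.6% of 48 PFC and 43.9% of 54 striatal ones. The hypothalamic sum had a median of 221 CPM and ran from 53.0 CPM to 3708 CPM in animal 15-1. At a cut of 4.0 times the region's median, a value chosen after seeing the data, 21 libraries of 11 animals and 8 number groups were high. By labelled sex, 10 of these animals were among the 35 females and 1, animal 14-4, among the 36 males, and 18 of 107 female and 3 of 101 male libraries were high. The hypothalamic sum had a lowest, median and highest level of 64.4, 302 and 3708 CPM in females and 53.0, 185 and 1156 CPM in males, which overlap. Medians in females and males were 313 and 269 CPM in the hippocampus and 329 and 286 CPM in the striatum. In the PFC the order was the other way, with 242 and 347 CPM. The fits hold a term for sex, and whether the changes between conditions differ by sex was not tested. MOR-SAL held 0 of the high libraries in any region. MOR-LPS held 4 of the 8 in the hypothalamus, 2 of 2 in the hippocampus, 3 of 4 in the PFC and 6 of 7 in the striatum, SAL-SAL held 2, 0, 1 and 1, and SAL-LPS held 2 in the hypothalamus and 0 elsewhere.

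**Figure D2:**
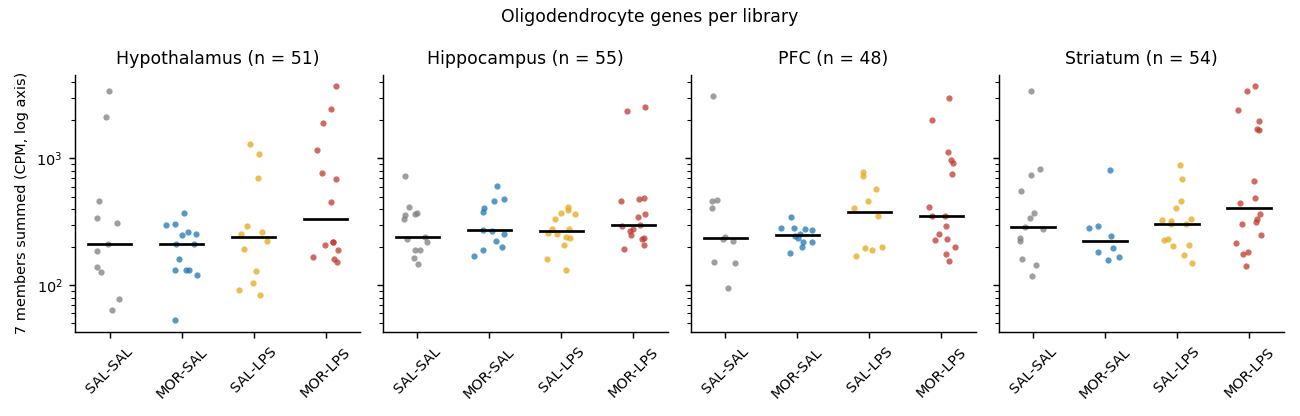
CPM summed over Mbp, Mobp, Mal, Mog, Mag, Cnp and Sox10 (log axis) in each library, by region and condition, with a bar at the median of each group. The MOR-SAL libraries of the hypothalamus end at 373 CPM, while MOR-LPS reaches 3708 CPM and SAL-SAL 3396 CPM.

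The high libraries recurred in the same animals. In animal 15-3 (MOR-LPS) the sum of the 7 genes was 2457, 2540, 2027 and 3711 CPM (hypothalamus, hippocampus, PFC, striatum), between 7.40 and 12.2 times its region's median. Animal 9-4, a SAL-SAL control, had 2111, 364, 3123 and 3432 CPM in the same order and was thus high in every region but the hippocampus, whose median was 275 CPM. Animal 14-4 (MOR-LPS) was high in the hypothalamus (1156 CPM), PFC (3013) and striatum (1667) with 247 CPM in the hippocampus. Animals 15-1, 16-4 and 7-1, all MOR-LPS, were each high in 2 regions. A high level thus occurred in a mouse that received saline throughout as well as in mice given morphine and LPS.

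Across animals with both regions, Pearson correlations of log2(CPM + 1) were above 0 for all 8 genes in the 6 pairs of regions (48 of 48), and not all passed. After Benjamini-Hochberg adjustment over these 48 tests, 29 Pearson and 19 Spearman correlations had p under 0.05 in permutation tests, whose smallest possible p is 1e-05. For Mobp between hypothalamus and striatum, r was 0.74 and rho 0.75 (37 animals, both p = 1e-05, adjusted p = 6.86e-05 and 0.00048), and r was 0.72 without animals 15-1 and 15-3, the farthest from the median. For Mag between PFC and striatum, r was 0.77 and rho 0.60 (35 animals, p = 1e-05 and 0.00016, adjusted 6.86e-05 and 0.00192), and r was 0.68 without animals 14-4 and 15-3. Within conditions these values were 0.68 for Mobp and 0.75 for Mag. Over the 8 genes, r within conditions was 0.32 to 0.68 for hypothalamus and striatum and 0.55 to 0.75 for PFC and striatum. For hypothalamus and PFC it was 0.06 to 0.46, and for hypothalamus and hippocampus 0.09 to 0.34. For the hippocampus it was 0.08 to 0.30 with the PFC and 0.27 to 0.49 with the striatum. The permutations were made over all animals, whatever their condition.

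For the hippocampus, the median r over the 8 genes was 0.42 with the striatum (42 animals), 0.29 with the hypothalamus (38) and 0.25 with the PFC (36), against 0.38 for hypothalamus and PFC (35), 0.64 for hypothalamus and striatum and 0.68 for PFC and striatum. Without the 2 farthest animals the values between hippocampus and striatum lay between -0.01 and 0.29, and animals 15-3 and 7-1 were the farthest for every gene but St18. For those 7 genes r fell, for Mbp from 0.40 to -0.01, whereas St18 had 0.32 with all animals and 0.28 without its farthest (15-3 and 9-0). Between hippocampus and PFC 0 of the 8 genes passed by Pearson or Spearman, rho was as low as -0.07, and r lay between -0.20 and 0.17 without the 2 farthest animals. Between hypothalamus and hippocampus, r lay between 0.19 and 0.37 with all animals and between 0.22 and 0.47 without the 2 farthest. For Rbfox3 the 6 values lay between -0.08 and 0.29. Mice of a litter are not independent, which these p do not account for.

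**Figure D3:**
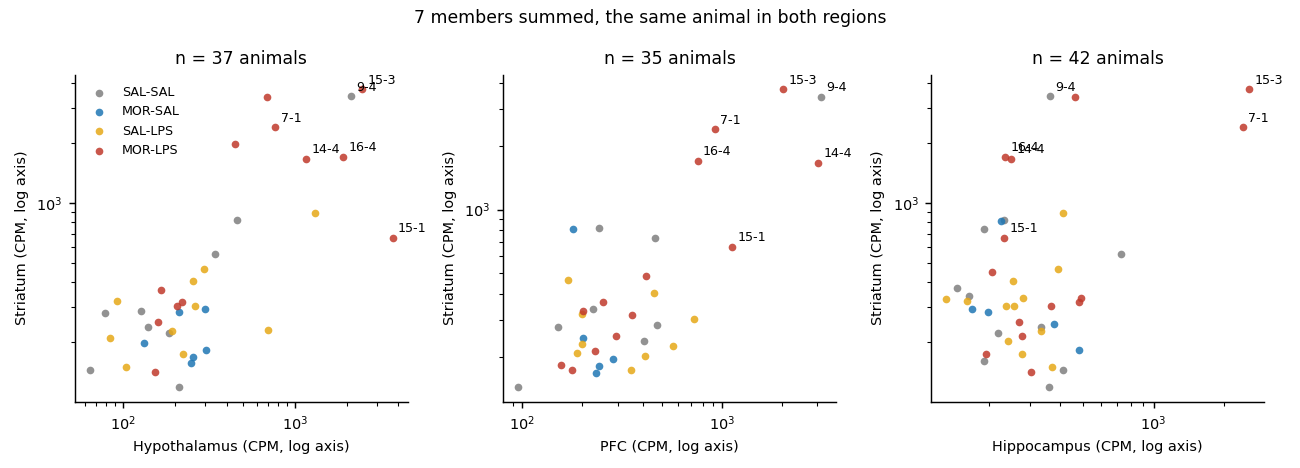
CPM summed over the 7 genes other than St18 in the striatum (y) against the hypothalamus, PFC and hippocampus (x, all axes logarithmic), with a point for each animal that had both libraries, coloured by condition, and the 6 animals that were high in several regions named. Points rise together in the first pair of panels (r = 0.77 and 0.76), and in the hippocampus panel animals 15-3 and 7-1 carry most of the relation.

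The levels of the 7 myelin and lineage genes were positively related from library to library. The median Spearman rho over their 21 pairs was 0.72, 0.65, 0.58 and 0.87 in hypothalamus, hippocampus, PFC and striatum, given as a description, since all genes of a library share its depth and scaling. For the 7 pairs that include St18 the medians were 0.34, 0.24, 0.49 and 0.65. Against the mean of the other 7 genes, St18 had the lowest Pearson's r of the 8 in the hypothalamus (0.46), hippocampus (0.38) and striatum (0.82), and in the PFC Sox10 (0.47) was below St18 (0.66). Among 12967 genes with a mean of at least 1 CPM in each region, the 10 whose log2 level followed the mean of the 8 most closely included Gatm (mean Pearson's r over the 4 regions 0.80), Aspa (0.78), Fa2h (0.78), Csrp1 (0.77), Cldn11 (0.77), Kcnj10 (0.76), Anln (0.76), Gjc3 (0.76) and Plxnb3 (0.76). Of the 10, 5 are on the list of 26 further genes of mature oligodendrocytes used here, Aspa, Fa2h, Cldn11 and Gjc3 among them. By region the closest 5 included Gatm (0.93), Sepp1, Aspa and Myrf in the hypothalamus, Fa2h (0.74), Acsl3, Gatm and Cdh19 in the hippocampus, Bcl2l1 (0.76), Hepacam, Sepp1 and 1700047M11Rik in the PFC, and Gjc3 (0.96), Ttyh2, Fa2h, Csrp1 and Kcnj10 in the striatum.

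Markers of other glia moved with the same libraries. Against the sum of the 7 genes, the summed astrocyte list had a rho of 0.74, 0.54, 0.80 and 0.50 in the hypothalamus, hippocampus, PFC and striatum, and the summed microglia list 0.71, 0.55, 0.64 and 0.85. The neuron list had -0.34, -0.18, -0.49 and -0.54 and the total count -0.06, 0.01, -0.02 and -0.47. The list of oligodendrocyte precursors (OPC) had 0.82 in the hypothalamus and 0.13, 0.03 and -0.10 elsewhere, where 2 of its 10 genes are listed at 0 in every library, so these are not values of the same list. The same limit holds outside the hypothalamus for the astrocyte and microglia lists, with 1 gene each at 0, and the neuron list, with 2. Pdgfra, the defining marker of OPC, alone had 0.53, 0.19, 0.40 and 0.83 in the same order of regions. Rbfox3, the transcript of the sorted antigen, had -0.02, -0.22, -0.48 and -0.54, so it was hardly related to the 7 genes in the hypothalamus. In the hippocampal library of animal 15-3, with 2540 CPM of the 7 genes, Aqp4 (astrocytes) stood at 57.7 CPM, Cx3cr1 (microglia) at 60.4 and Pdgfra (OPC) at 82.6, against regional medians of 3.96, 5.17 and 2.03, and Rbfox3 at 649 CPM against 1315. The vascular list had 0.51 in the hypothalamus and 0.08, 0.09 and -0.11 in the other regions, and Cldn5, its defining marker, had 0.36, 0.02, 0.05 and 0.17. Cldn5 was at 0 in 40 of 54 libraries from the striatum, 38 of 48 from the PFC, 36 of 55 from the hippocampus and 30 of 51 from the hypothalamus. In bulk libraries, fewer nuclei of a type and less RNA per nucleus cannot be told apart. What part other nuclei in the sorted fraction have in the levels of the 8 genes was not tested.

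MOR-LPS against MOR-SAL asks what LPS does in mice that had been exposed to morphine. In the hypothalamus 5 of the 8 genes rose, Mobp, Mbp, Mal, Mog and Mag, beside 6.27% of all genes tested (4.1% higher), and none fell. The median log2 fold change was 1.83 for the 8 genes and 0.00 for all genes. The groups overlapped for each of the 8 genes.

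Mobp, a small basic protein of compact myelin, had a lowest, median and highest level of 3.26, 21.4 and 42.7 CPM in MOR-SAL and of 13.2, 70.5 and 759 CPM in MOR-LPS. Animals 15-1 (759 CPM), 15-3 (569), 16-4 (302), 16-0 (148), 7-1 (134), 14-4 (129) and 16-2 (103) lay above the top of MOR-SAL, and the other 7 libraries of MOR-LPS lay below it. Of the animals above it, 14-4 was labelled male and all the others female. Several shared a number group, 15-1 with 15-3, and 16-0 with 16-2 and 16-4. The fold change of Mobp was 2.43 ± 0.45 (log2, SE, adjusted p = 0.00064, edgeR's quasi-likelihood test).

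Mbp, whose product binds the inner faces of the myelin membrane together, had 20.7, 101 and 188 CPM in MOR-SAL and 80.1, 146 and 1421 CPM in MOR-LPS (lowest, median and highest), a fold change of 1.74 ± 0.42 (adjusted p = 0.00878). Mal, a membrane protein of the compact sheath, had 2.31, 9.69 and 23.7 CPM against 0, 19.8 and 208 CPM (1.98 ± 0.52, adjusted p = 0.0145). In both genes the highest library was that of animal 15-1, and the lowest library of MOR-LPS for Mal was below the lowest of MOR-SAL.

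Mog, the protein of the outermost myelin surface, had 2.15, 6.69 and 12.3 CPM in MOR-SAL and 0, 17.0 and 149 CPM in MOR-LPS (1.93 ± 0.53, adjusted p = 0.0189). Mag, the adhesion protein that faces the axon, had 1.69, 15.5 and 26.6 CPM against 2.58, 37.3 and 368 CPM (1.64 ± 0.51, adjusted p = 0.0417). Medians and maxima of both surface genes were higher in MOR-LPS, while their lowest values did not move in 1 direction.

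The other 3 genes did not pass. Cnp had 20.4, 48.0 and 96.2 CPM against 2.06, 55.0 and 689 CPM (1.25 ± 0.47, adjusted p = 0.0917), and Sox10 had 0, 2.20 and 5.08 CPM against 0, 8.62 and 113 CPM (2.12 ± 0.70, adjusted p = 0.0515). St18 had 2.00, 16.8 and 27.5 CPM against 0, 21.0 and 58.1 CPM (0.36 ± 0.49, adjusted p = 0.774), and its highest library was that of animal 6-0, whose Mobp level was 36.3 CPM. Limma on log2(CPM + 1) and on log2(CPM + 0.1) called 1 of the 8. Without animal 14-4 the count of called genes was 3, and without number groups 14, 15 and 16 it was 3, 2 and 3.

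**Figure D4:**
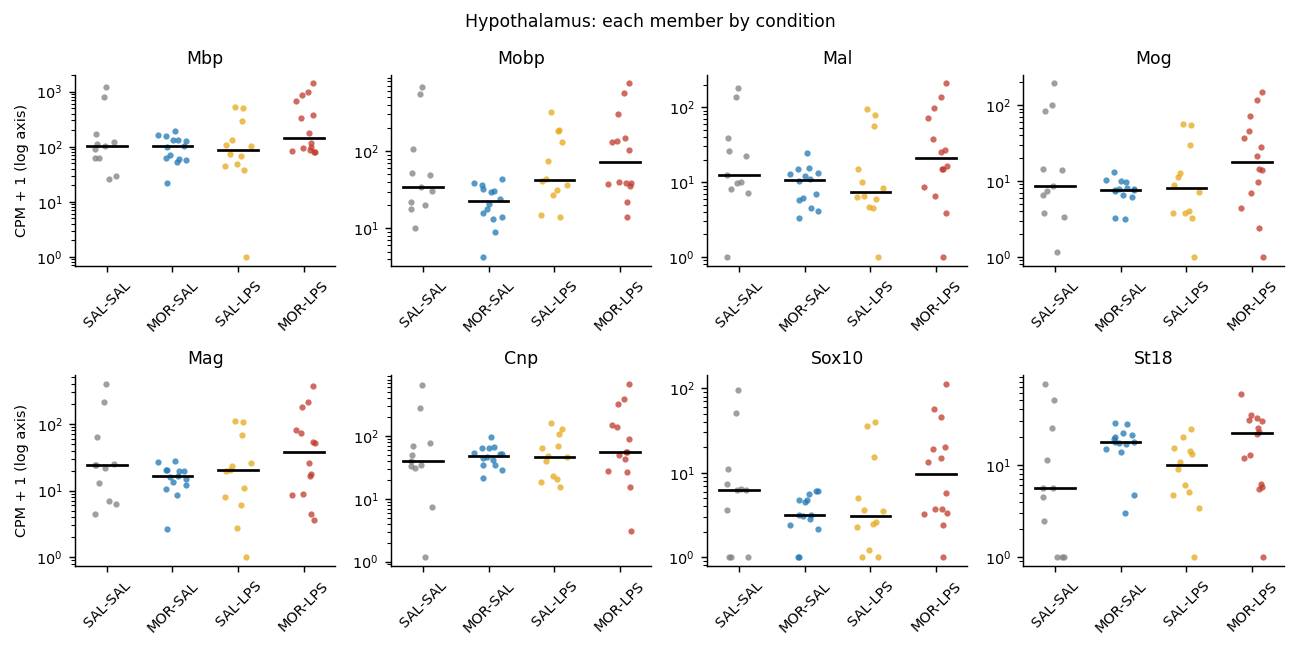
Level of each of the 8 genes in every hypothalamic library (CPM plus 1, log axis) by condition, with a bar at the median. For Mobp the MOR-SAL libraries end at 42.7 CPM and 7 of 14 MOR-LPS libraries lie above that value, while St18 has like medians of 16.8 and 21.0 CPM.

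Other oligodendrocyte genes and other glial genes rose in the same comparison. Of 26 further genes of mature oligodendrocytes 8 rose and 0 fell (median log2 fold change 1.69), among them Hapln2 (2.61), Myrf (1.71), Ninj2 (5.09), Gsn (1.87), Enpp2, Olig1 (2.35) and Fa2h (1.81). Myrf is the transcription factor that turns on myelin genes, and Fa2h makes hydroxylated fatty acids for myelin lipids. Of 10 OPC genes 5 rose, among them Cspg4 (2.93) and Pdgfra (2.44), of 12 astrocyte genes 10, of 12 microglia genes 6 and of 10 vascular genes 2, whereas 0 of 10 neuron genes were called in either direction. The summed astrocyte list had a lowest, median and highest level of 265, 383 and 502 CPM in MOR-SAL and 305, 1245 and 3254 CPM in MOR-LPS. The summed microglia list had 26.6, 40.5 and 63.0 CPM against 24.0, 57.3 and 240 CPM, and the summed neuron list a median of 17651 against 16929 CPM. No defining marker was at 0 throughout (Aqp4 had medians of 4.81 and 15.6 CPM), and the part of these other cell types in the change of the 8 genes was not tested.

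MOR-SAL against SAL-SAL compares the exposures without LPS. In the hypothalamus Mobp (-2.20 ± 0.46, adjusted p = 0.00739) and Mal (-1.91 ± 0.54, 0.0499) were lower in MOR-SAL, so that 2 of 8 genes were called beside 1.44% of all genes (1.17% lower). The median over the 8 was -1.74 against 0.07 for all genes. The middle of the groups did not differ in the same way. Mobp had 9.14, 33.3 and 672 CPM in SAL-SAL against a median of 21.4 CPM in MOR-SAL, and the summed 7 genes had medians of 211 and 212 CPM. Animals 4-1 and 9-4 of SAL-SAL, with 672 and 545 CPM of Mobp, stood far above the other SAL-SAL libraries, of which the next had 107 CPM. The call of Mobp held in 51 of 51 fits that each left out 1 library and in 17 of 17 that left out 1 number group, and that of Mal in 21 and 4. Animals 4-1 and 9-4 belong to different number groups, so none of these fits left out both. These fits therefore cannot show whether the call rests on that pair. Of 12 other settings Mobp was called in 9 (adjusted p up to 0.198) and Mal in 5, and limma and limma-voom called 0 of the 8. Of the other lists, 3 of 26 mature oligodendrocyte genes (Gsn, Enpp2 and Myrf), 2 of 10 OPC genes (Neu4 and Matn4), 1 of 12 astrocyte genes (Slc1a2) and 0 of 12 microglia genes were lower.

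SAL-LPS against SAL-SAL, the response to LPS without morphine, gave 0 calls among the 8 in the hypothalamus, beside 0.246% of all genes (edgeR, 4038 genes at an unadjusted p under 0.05). Fold changes ran from -1.01 (Mog) to -0.08 (St18), with a lowest adjusted p of 0.432. Mobp had 13.1, 41.5 and 322 CPM in SAL-LPS, and its 3 highest libraries came from animals 10-4, 3-1 and 9-1. MOR-LPS against SAL-LPS gave 0 calls as well, beside 1.03% of all genes (4010 at an unadjusted p under 0.05), with fold changes from 0.70 to 1.09 and a lowest adjusted p of 0.217.

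The interaction asks whether the response to LPS differed between mice exposed to morphine and to saline. In the hypothalamus it was called for Mobp (2.90 ± 0.65, adjusted p = 0.00729), Mog (2.94 ± 0.77, 0.0174), Mal (2.79 ± 0.75, 0.0213), Mbp (2.20 ± 0.61, 0.0257) and Mag (2.51 ± 0.75, 0.0398), 5 of 8 beside 3.8% of all genes (2.2% higher). It is the fold change after morphine minus that after saline, which for Mobp were 2.43 and -0.47. The response after saline was called for none of the 8 genes. From SAL-SAL to SAL-LPS the median of Mobp went from 33.3 to 41.5 CPM, against the sign of its fold change. Sox10 (3.10 ± 0.98, adjusted p = 0.056), Cnp (2.07 ± 0.70, 0.0799) and St18 (0.44 ± 0.76, 0.911) did not pass. Limma and limma-voom called 0 of the 8. Of the mature oligodendrocyte list 8 of 26 were called higher, of OPC 2 of 10, of astrocytes 5 of 12 and of microglia 1 of 12. Without animal 4-1 or 9-4 of SAL-SAL the count for the 8 genes was 3, and without animal 14-4 it was 2.

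In the PFC the same direction was seen with fewer calls. MOR-LPS against MOR-SAL had fold changes between 0.84 (St18) and 1.97 (Mobp, ± 0.48, adjusted p = 0.0797), and 0 of the 8 were called beside 0.0184% of all genes (2867 at an unadjusted p under 0.05). Mobp had 16.2, 30.8 and 52.7 CPM in MOR-SAL and 9.59, 73.4 and 566 CPM in MOR-LPS. The interaction was called for Mag (3.02 ± 0.80, adjusted p = 0.0347), 1 of 8 beside 1.78% of all genes (1.35% higher), and DESeq2, limma and limma-voom called 0. Mag had 1.97, 18.0 and 240 CPM in SAL-SAL, 3.33, 13.8 and 41.3 in MOR-SAL, 1.40, 10.3 and 45.6 in SAL-LPS and 2.18, 29.2 and 302 CPM in MOR-LPS. Of the mature oligodendrocyte list 3 of 26 were called higher, among them Ermn (5.77) and Gjc3 (4.39), and of the OPC, astrocyte and microglia lists 0. SAL-LPS against SAL-SAL and MOR-SAL against SAL-SAL called 0 of the 8 and 0% of all genes (2752 and 2185 at an unadjusted p under 0.05), and MOR-LPS against SAL-LPS called 0 of the 8 beside 0.0046% (2831).

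In the hippocampus 0 of the 8 genes were called in any comparison by edgeR with sex and condition as terms and TMM scaling. For MOR-LPS against SAL-LPS, where 2.73% of all genes were called (3751 at an unadjusted p under 0.05), fold changes ran from 0.47 (St18) to 1.44 (Mag, ± 0.44, adjusted p = 0.0565), with Mobp at 1.25 ± 0.39 (0.0613). Mag had 1.70, 8.19 and 18.8 CPM in SAL-LPS and 2.47, 11.5 and 200 CPM in MOR-LPS. Of the mature oligodendrocyte list 5 of 26 were called higher, among them Tspan2 (1.41), Car2 (1.58), Aspa (1.98) and Plekhh1 (1.14), and of the microglia list 2 of 11, Csf1r and Trem2. The count for the 8 in this comparison was 4 with no sex term, 2 with library size alone, 1 without low-depth libraries, 3 without number group 12 and 2 without number group 14. MOR-LPS against MOR-SAL (0.467% of all genes, 3166 at an unadjusted p under 0.05) gave 0.04 to 1.21, SAL-LPS against SAL-SAL (2.55%, 3854) -0.62 to 0.10, MOR-SAL against SAL-SAL (0%, 2272) -0.39 to 0.41 and the interaction (2.35%, 2817) 0.32 to 1.62. St18 had medians of 96.5 CPM in SAL-SAL, 90.3 in MOR-SAL, 83.4 in MOR-LPS and 56.9 in SAL-LPS.

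In the striatum 0 of the 8 were called either. MOR-LPS against SAL-LPS had fold changes from 1.07 to 1.60, with Mbp at 1.24 ± 0.35 (adjusted p = 0.085, 0% of all genes called, 2628 at an unadjusted p under 0.05). Mbp had 82.5, 162 and 432 CPM in SAL-LPS and 87.3, 209 and 1781 CPM in MOR-LPS. MOR-LPS against MOR-SAL (1.39% of all genes, 4173 at an unadjusted p under 0.05) had 0.95 to 1.54, with a median of 1.14 against 0.11 for all genes. In that comparison 0 of 26 mature oligodendrocyte genes were called, beside 5 of 11 astrocyte genes (Aldh1l1, Gjb6, Fgfr3, Aqp4 and Slc1a3) and 1 of 11 microglia genes (C1qa). These calls were higher, whereas 1 of 8 neuron genes tested, Nefm, was called lower. SAL-LPS against SAL-SAL (0.0128%, 2743) had -1.33 to -0.34, MOR-SAL against SAL-SAL (0%, 2683) -0.95 to -0.38 and the interaction (0.00854%, 3470) 1.58 to 2.55.

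**Figure D5:**
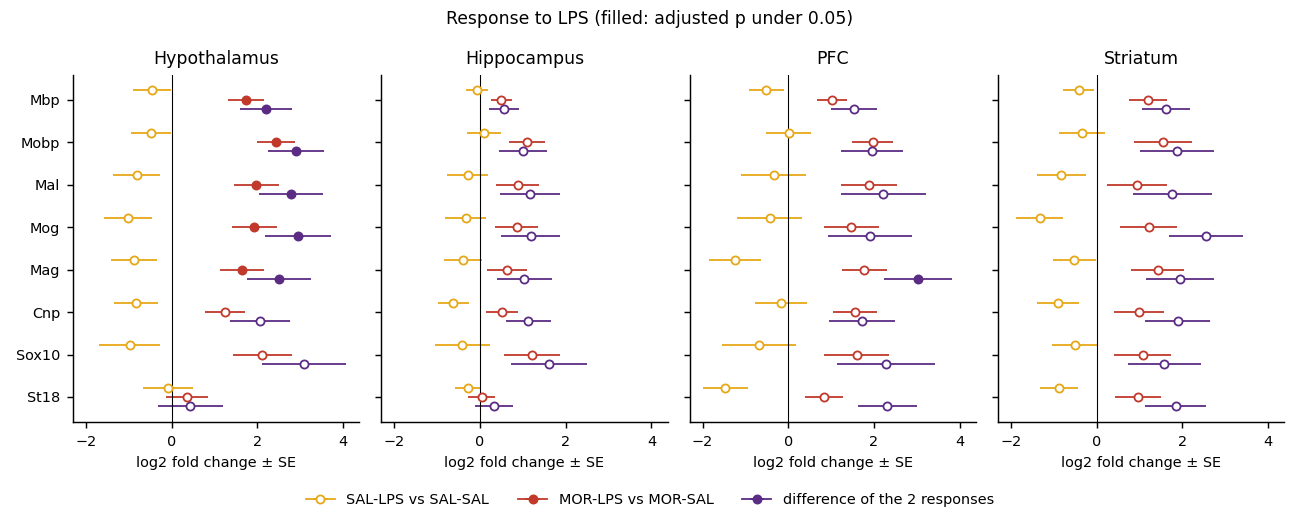
Log2 fold change with its SE for each of the 8 genes in SAL-LPS against SAL-SAL, MOR-LPS against MOR-SAL and the difference of these (interaction), in the 4 regions, with filled points where the adjusted p was under 0.05. Filled points occur for 5 genes in the hypothalamus after morphine, the same number in its interaction, and for Mag in the PFC interaction (3.02).

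The response to LPS was not shown to differ between regions. For SAL-LPS against SAL-SAL, 0 of the 8 genes were called in each of the 3 pairs of hippocampus, PFC and striatum, beside 2.85% (hippocampus and PFC), 1.62% (hippocampus and striatum) and 1.57% (PFC and striatum) of all genes, with lowest adjusted p of 0.462, 0.996 and 0.716 (edgeR). For MOR-LPS against MOR-SAL the same holds beside 2.12%, 0.733% and 1.06%, with lowest adjusted p of 0.614, 0.488 and 1. All genes at an unadjusted p under 0.05 numbered 3360, 2334 and 3153 in the former and 2908, 2548 and 2311 in the latter. With the hypothalamus added to the fit, its response was compared with those of the hippocampus, PFC and striatum, and 0 of the 8 genes were called in each. For MOR-LPS against MOR-SAL the lowest adjusted p were 0.0892, 0.478 and 0.666, beside 4.57%, 4.63% and 2.11% of all genes called (3839, 3725 and 2943 at an unadjusted p under 0.05). For SAL-LPS against SAL-SAL they were 0.909, 0.329 and 0.717, beside 2.19%, 2.85% and 1.49% (2729, 3306 and 2706). The calls made in the hypothalamus after morphine are therefore not shown to be particular to it.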

How the data were processed

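The authors sorted NeuN+ nuclei for each library and made nuclear RNA libraries by a modified Smart-seq3 protocol. Per the paper's methods and the submitters' notes, reads were trimmed with Trim Galore 0.6.7 and aligned with STAR 2.7.10a to mm10 with GENCODE vM25. The authors deposited raw counts per gene and CPM. Levels and sums are the deposited CPM, which matched CPM recomputed here from the counts after 37 mitochondrial genes were dropped. The members and gene lists were chosen with earlier results of these data known. Genes with a total count above 10 were fitted per region with edgeR 4.0.16 (quasi-likelihood, TMM, R 4.3.3) with sex and a 4-level condition, and p-values were adjusted over all genes tested (28859, 22076, 21729 and 23426 in the hypothalamus, hippocampus, PFC and striatum). The 3 forebrain regions were fitted together over 25098 genes. Named genes were the 8 members, list genes past an adjusted p of 0.05 and the 10 genes most like the members. Some of these are counted but not reported here by name. Several mice came from each litter and the labels do not name the litters, so p-values measure the spread between these animals. Alternatives used DESeq2 1.42.0, limma 3.58.1, other filters, scalings and pseudocounts (0.1 and 1), the first number of the replicate label as a block, and leaving out each number group and, in the hypothalamus, each library. Removing libraries whose Y-linked genes went against the label, leaving out single hypothalamic libraries and limma-voom without the animal block were chosen after seeing the data. Scripts were tested on simulated data. Correlations used 100000 permutations (Python 3.11.15). A count of 0 allows up to 3 counts of the library's total, for counting error only.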

Additional observations from a re-analysis of the deposited data

Results flagged for a closer look

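In the PFC, the SAL-SAL library of animal 9-4 stood apart from the other 9 for all 8 genes. It had 1313 CPM of Mbp (next highest 236), 774 of Mobp (88.7), 213 of Mal (29.3), 179 of Mog (24.4), 240 of Mag (33.2), 334 of Cnp (58.8), 69.4 of Sox10 (15.7) and 404 of St18 (34.0). In the SAL-LPS group of the PFC, animal 1-4 stood apart with 310 CPM of Mobp (next highest 134), 90.1 of Mal (44.4) and 63.1 of Mog (26.6). In the striatum, animal 17-2 of MOR-SAL stood apart with 350 CPM of Mbp (170), 166 of Mobp (61.5), 86.5 of Mal (16.8), 28.9 of Mog (12.9), 44.3 of Mag (18.9), 122 of Cnp (24.7) and 12.0 of Sox10 (4.55). By Dixon's criterion, applied to CPM without a log, 18 of 24 combinations of a gene and a group of 10 or fewer libraries held such a library. Chance flags about 1 in 20 groups if the values are normally distributed, which was not checked here. The 8 genes of a library are not independent.

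By edgeR, the interaction between LPS and exposure was called in the hypothalamus for Mobp (2.90), Mog (2.94), Mal (2.79), Mag (2.51) and Mbp (2.20), and in the PFC for Mag (3.02), each on the log2 scale, beside 3.8% and 1.78% of all genes. Both limma fits, limma-voom and the number block called 0 of the 8 in either region, and Mag was called in 5 of 12 other settings in each (adjusted p up to 0.477 in the hypothalamus and 0.952 in the PFC).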

How the results depend on the processing

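The larger changes in the counts of the 8 genes called were as follows. For MOR-LPS against MOR-SAL in the hypothalamus (5), limma on log2(CPM + 0.1) and on log2(CPM + 1) gave 1 each, and limma-voom with a correlation within number groups and the number block 2 each. Leaving out a library or number group gave 2 to 7. In the PFC (0), DESeq2, the number block and a fit of only the groups compared gave 1 each, and leave-outs 0 to 1 (1 without number group 9). In the striatum (0), limma on log2(CPM + 0.1) gave 1. For MOR-LPS against SAL-LPS in the hippocampus (0), library size alone gave 2, no sex term 4, no low-depth libraries 1 and leave-outs 0 to 3. In the striatum (0), DESeq2 gave 1 and leave-outs 0 to 1 (1 without number group 12). For MOR-SAL against SAL-SAL in the hypothalamus (2), DESeq2, filterByExpr, library size alone and removal of libraries against their labelled sex gave 1 each, both limma fits and limma-voom 0, no sex term 5, only the groups compared 4 and leave-outs 1 to 3. For the hypothalamic interaction (5), filterByExpr gave 1, both limma fits, limma-voom and the number block 0, removal of libraries against their labelled sex 2 and leave-outs 1 to 7 (1 without number groups 4, 9 or 15, 2 without number group 14, 3 without number group 5). For the PFC interaction (1), DESeq2, filterByExpr, both limma fits, limma-voom, the number block and removal of libraries against their labelled sex gave 0, no sex term 2 and leave-outs 0 to 2 (0 without number groups 1, 3, 9, 10, 14, 15 or 16, and 2 without number group 12). Between hippocampus and PFC (5), limma-voom with no replicate block gave 2 (1 higher, 1 lower). DESeq2 gave 1 higher and 5 lower for this pair, and library size alone 1 higher and 3 lower. Between hippocampus and striatum (5), library size alone gave 3 and limma-voom with no replicate block 1, which is higher whereas the 5 are lower. DESeq2 size factors and the fit with the hypothalamus added gave 4 lower each. The causes of these changes were not tested.

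Directions turned for 3 genes. Cnp in MOR-SAL against SAL-SAL of the hypothalamus (-0.98) had 0.36 and 0.16 in limma with pseudocounts of 0.1 and 1, and 0.30 in limma-voom. Mal in the PFC interaction (2.21) had -0.036 in limma with 0.1. St18 in the hypothalamic interaction (0.44) had -1.25 and -0.40 in limma, -1.69 in limma-voom, -0.42 with the number block, and -0.51 to 0.75 over leave-outs (-0.06 without library 4-1, -0.51 without number group 4). St18 in MOR-LPS against MOR-SAL of the hypothalamus (0.36) had -0.26 and -0.050 in limma and -0.069 in limma-voom.

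Mobp in MOR-LPS against MOR-SAL of the hypothalamus passed in 13 of 13 settings, 17 of 17 number-group leave-outs and 51 of 51 library leave-outs. The first number of the replicate label is not said to mark a shared litter, so the samples are not taken as paired. With it as a replicate block, Mobp (2.23 ± 0.40, adjusted p = 0.000444) and Mbp (1.56 ± 0.37, 0.0149) were called in that comparison, and Mal (1.52, 0.0885), Mog (1.62, 0.0998) and Mag (1.32, 0.14) were not. The median correlation of the deviations of samples that share the number was 0.01, 0.01, -0.03 and 0.08 in hypothalamus, hippocampus, PFC and striatum, and it was over 0.1 in 1 of 15, 5 of 15, 5 of 11 and 6 of 12 number groups. An edgeR fit with 1 coefficient per animal was not run, and limma-voom with the animal as a block took its place. Removal of low-depth libraries or of those against their labelled sex gives no value for the striatum, which has 0 of either. At a depth of 7673 counts the hypothalamic library of animal 1-4 shows little of any of the 8 genes.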
